A study of Mus musculus with 5 samples.

Results

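The respiratory chain is described here through 53 genes of the 21289 in the count table: the 13 protein genes of the mitochondrial genome and 40 nuclear genes for subunits of complexes I to V and for cytochrome c. Members were taken by their symbol in the table, where mitochondrial genes carry no prefix, and all 53 were found and passed the filter on low counts. The cells were CD45+CD64+ macrophages, sorted by flow cytometry from infarcted hearts of wild-type male C57BL/6JGpt mice at day 7. The treated group (3 libraries, curcumol 1 to 3) came from infarcted mice given curcumol, a plant sesquiterpene, by mouth at 30 mg/kg a day for 7 days. The untreated group (2 libraries, untreated 1 and 2) came from infarcted mice without curcumol. All 5 libraries are thus from infarcted hearts, and no sham-operated group enters the comparison. The labels give neither the animals' age nor whether a library is 1 animal or a pool, so the p-values rest on the spread among these 5 libraries, which may be technical. The series' title names the DNA sensor adaptor STING and the type I interferon response as its subject, and the comparison here asks how transcripts of the chain stood with curcumol.

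Electrons enter the chain at complex I (from NADH) or complex II (from succinate), pass through complex III and cytochrome c to complex IV, where oxygen is reduced, and the proton gradient that builds up drives complex V, the ATP synthase. Complexes I, III, IV and V are assembled from subunits of both genomes, whereas complex II and cytochrome c are encoded only in the nucleus. The mitochondrial genes are transcribed as long polycistronic RNAs that are cut into single messages, and the nuclear genes have their own promoters. In macrophages the chain supplies ATP and also controls the redox state and radical production on which inflammatory activation depends.

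Library totals lay between 39768705 and 41117439 counts with curcumol and were 43315822 and 41663017 counts without it. The curcumol libraries held 17078 to 18501 genes with a count, against 12243 and 12915 in the untreated libraries. Macrophage markers were abundant in all: the 13 markers summed to 43042 to 49591 CPM with curcumol, against 50224 and 49636 CPM without. Lyz2 held much of that sum, at 20527 to 24144 CPM with curcumol and 24995.5 and 26055 CPM without. Of the 13, 5 lay wholly higher and 4 wholly lower with curcumol (29.5% and 14.9% of all tested genes). Cd14 was at 1734, 1129 and 1756 CPM with curcumol and at 3755 and 3699 CPM without. C1qb was at 7038, 6448 and 6961 CPM with curcumol and at 6086 and 5997 CPM without. CPM here are counts scaled to a common library size with edgeR's TMM factors, which were 1.02 to 1.07 with curcumol and 0.911 and 0.939 without. In edgeR's quasi-likelihood test 30 of 14508 genes passed an adjusted p of 0.05, which is 0.207% of those tested, with 10 higher (0.0689%) and 20 lower (0.138%) in the curcumol group. The median log2 fold change over all tested genes was 0.15, curcumol minus untreated, a value against which the medians of lists are given below.

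In RefSeq's GRCm38.p6 annotation the 13 mitochondrial genes span chrM from base 2751, where ND1 starts, to base 15288, where CYTB ends. Several of them have near-identical copies in the nuclear genome, so their reads can match more than 1 place. In GENCODE M21 (GRCm38), a run of pseudogenes on the minus strand at chr1:24611535-24616197 holds copies of at least 99% identity. It covers 681 of 684 bases of COX2, 678 of 681 of ATP6, 783 of 784 of COX3, 345 of 348 of ND3 and 294 of 297 of ND4L. It also covers 876 of 1378 bases of ND4 and the last 479 bases of COX1. No annotated copy of at least 100 bases at that identity was found for ND1, ND2, ND5, ND6, CYTB or ATP8. ATP8 lies between COX2 and ATP6, which both have a copy. Its last 43 bases are the first of ATP6 and so lie in the ATP6 copy. Only annotated transcripts were searched, so copies outside them would be missed. The place where the copy of COX1 begins is shown by 60 bases of the mitochondrial gene (chrM:6381-6440, plus strand) beside those of the pseudogene Gm29216 (chr1:24616138-24616197, minus strand), with the identical stretch in capitals:
COX1: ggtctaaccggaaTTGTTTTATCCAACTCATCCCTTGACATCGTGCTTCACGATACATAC
Gm29216: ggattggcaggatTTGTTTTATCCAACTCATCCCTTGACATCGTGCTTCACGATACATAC
The 13 bases before the capitals hold 6 mismatches, and from base 1067 of COX1 to its end at base 1545 there is none.

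For COX2 no such border exists, as shown by the start of the gene (chrM:7013-7072, plus strand) and of its copy Gm28661 (chr1:24615506-24615565, minus strand), in which no base is set in capitals because all 60 are identical:
COX2: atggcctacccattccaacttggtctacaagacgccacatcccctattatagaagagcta
Gm28661: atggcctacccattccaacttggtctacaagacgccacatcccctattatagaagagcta
A read from any such stretch fits both places equally, and the sources used here do not say how such reads were counted. None of the pseudogenes matched a row of the count table by symbol.

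Some mitochondrial genes also share bases with each other, and a read there belongs to both. The end of ATP8 (chrM:7907-7969) and the start of ATP6 (chrM:7927-7989) overlap by 43 bases, in capitals, read in different frames:
ATP8: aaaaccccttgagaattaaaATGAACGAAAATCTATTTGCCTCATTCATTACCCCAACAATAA
ATP6: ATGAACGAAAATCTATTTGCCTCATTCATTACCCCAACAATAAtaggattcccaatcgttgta
The end of ND4L (chrM:10147-10173) and the start of ND4 (chrM:10167-10193) overlap by 7 bases, in capitals:
ND4L: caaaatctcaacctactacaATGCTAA
ND4: ATGCTAAaaattattcttccctcacta
ND5 and ND6 overlap by 14 bases on opposite strands. ND6 is the only protein gene on its strand, and the sources name both a stranded and another library kit, so reads of ND6 and of RNA antisense to it may not be told apart.

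Counted per kilobase of transcript, the 13 mitochondrial genes formed an abundant set of 7 and a low set of 6. CYTB was at 3309 CPM per kb with curcumol and 2199 without, COX1 at 2677 and 1291, and ND1 at 2283 and 1302. ND4, ND2, ND5 and ND6 followed at 379 to 704 CPM per kb with curcumol and 154 to 333 without. These levels use full lengths, and the order depends on it. With the same CPM divided by only the bases outside the copy, COX1 would be at 3895 CPM per kb with curcumol and 1878 without, and ND4 at 1933 and 914. Such values would hold only if no read from the copied stretch was counted, which is not known. COX2, ATP6, COX3, ND3, ATP8 and ND4L stood at 2.87 to 27.6 CPM per kb with curcumol and 0.771 to 20.1 without. The 6 low genes are the 5 that a nuclear copy covers almost whole and ATP8, which lies among them, and together they held 0.370% to 0.405% of the mitochondrial counts with curcumol and 0.410% and 0.471% without.

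**Figure D1:**
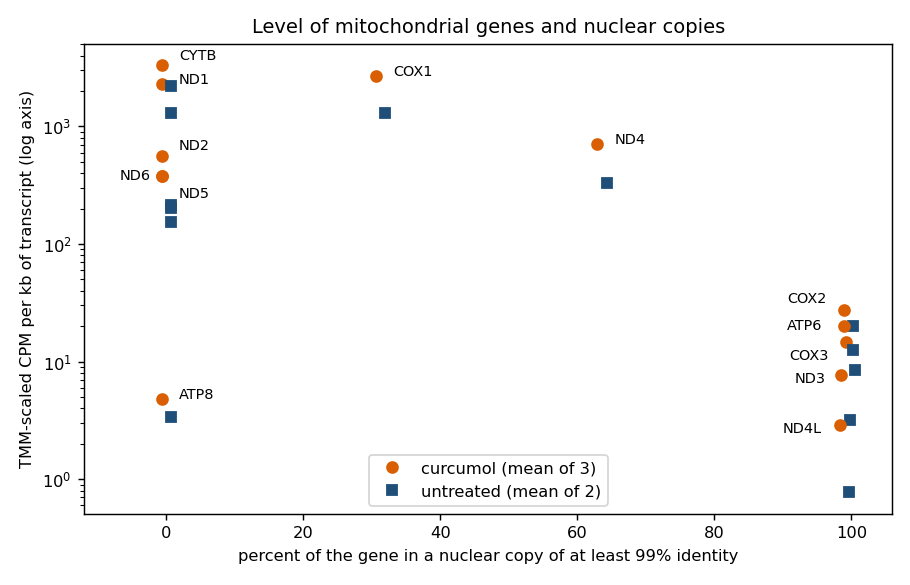
Mean level of the 13 mitochondrial genes in TMM-scaled CPM per kb of transcript (log axis) against the percent of each gene lying in a nuclear copy of at least 99% identity. Circles are means of the 3 curcumol libraries and squares means of the 2 untreated libraries. The 5 genes covered almost whole sit at or below 27.6 CPM per kb. ATP8 is at such a level too and is plotted at 0%, because no copy of at least 100 bases was found. Its last 43 bases lie in the copy of ATP6.

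Every mitochondrial gene had a positive fitted difference, higher with curcumol, as 57.1% of all tested genes did, and none passed the threshold. Of the 13, 6 had an unadjusted p under 0.05 on the higher side, where 18.1% of all tested genes did. The median log2 fold change was 0.91, which is 0.76 above that of all tested genes. For 11 of the 13 every curcumol library lay above both untreated libraries, as it did for 29.5% of all tested genes. The 11 include all 7 members above 100 CPM on average, and of all tested genes at that level 10.8% did so. Among genes above 100 CPM with curcumol, 4.6% had a fold change of at least that median. That share is no like measure, since 6 of the 13 lie below this level and the filter uses the curcumol group alone. Other tools called members: DESeq2 called 7 of the 53 (ND1, ND2, ND4, ND5, ND6 and COX1 higher and Cyc1 lower), beside 16.9% of all genes, and limma-voom called 5 (ND2, ND4, ND5, ND6 and COX1), beside 11.4%. The 13 come from shared precursor RNAs and the same libraries, so they are not 13 independent observations.

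Complex I takes 7 of its subunits from the mitochondrial genome, all in the membrane arm that pumps protons. ND6, a subunit of the proximal membrane arm, had the smallest p of all members: 159.9, 208 and 222 CPM with curcumol, against 63.1 and 96.2 CPM without (log2 fold change 1.30 ± 0.25 SE, edgeR adjusted p = 0.0651). ND2, an antiporter-like subunit, was at 453, 717 and 581 CPM with curcumol and at 138 and 305 CPM without (1.40 ± 0.38, edgeR adjusted p = 0.0815). The groups did not overlap for either gene, and untreated 1 was the lowest library in both.

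ND4, a second antiporter-like subunit, was at 771, 1163 and 977 CPM with curcumol and at 366 and 553 CPM without (1.08 ± 0.26, edgeR adjusted p = 0.0748). ND5, the most distal of these pumps, was at 636, 773 and 664 CPM with curcumol, against 285 and 451 CPM without (0.91 ± 0.24, edgeR adjusted p = 0.0784). ND1, which helps form the quinone site, was at 1832, 2474 and 2249.7 CPM with curcumol, against 958 and 1534 CPM without (0.81 ± 0.26, edgeR adjusted p = 0.110). In all 3 genes curcumol 2 was the highest library and curcumol 1 the lowest of its group, still above untreated 2. The small subunits ND3 and ND4L, both in the copied stretch, were at 2.29, 3.36 and 2.33 CPM and at 0.717, 1.09 and 0.752 CPM with curcumol, against 0.862 and 1.36 CPM and 0.253 and 0.205 CPM without. ND4L rested on only 30, 48 and 32 counts with curcumol and 10 and 8 without, and its log2 fold change of 1.88 had an SE of 0.97.

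CYTB, the cytochrome b of complex III, was at 3495, 4047 and 3815 CPM with curcumol and at 1863 and 3168 CPM without. The groups did not overlap, but the log2 fold change of 0.59 ± 0.25 had a 95% interval of -0.02 to 1.20 (edgeR adjusted p = 0.213). Untreated 2 stood much nearer to the curcumol libraries than untreated 1 did.

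Complex IV has its catalytic core in COX1 to COX3. COX1, which holds the site of oxygen reduction, was at 3412, 4312 and 4685 CPM with curcumol and at 1550.5 and 2438 CPM without (1.05 ± 0.26, edgeR adjusted p = 0.0753). COX3, the core subunit without a metal centre, was at 10.6, 12.3 and 11.9 CPM with curcumol and at 4.004 and 9.18 CPM without (0.82 ± 0.50, edgeR adjusted p = 0.383). COX2, which takes electrons from cytochrome c, was at 15.1, 21.7 and 19.8 CPM with curcumol and at 9.91 and 17.6 CPM without, so that untreated 2 lay above curcumol 1 (0.46 ± 0.37, edgeR adjusted p = 0.524). COX2 and COX3 are both covered by a nuclear copy.

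Complex V takes ATP6 and ATP8, parts of its proton channel and stator, from the mitochondrial genome. ATP6 was at 11.9, 15.9 and 12.99 CPM with curcumol and at 6.01 and 11.2 CPM without (0.66 ± 0.43, edgeR adjusted p = 0.415). ATP8 had 21, 54 and 52 counts with curcumol and 19 and 35 counts without. Its groups overlapped, and its difference of 0.51 had an SE of 0.96.

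**Figure D2:**
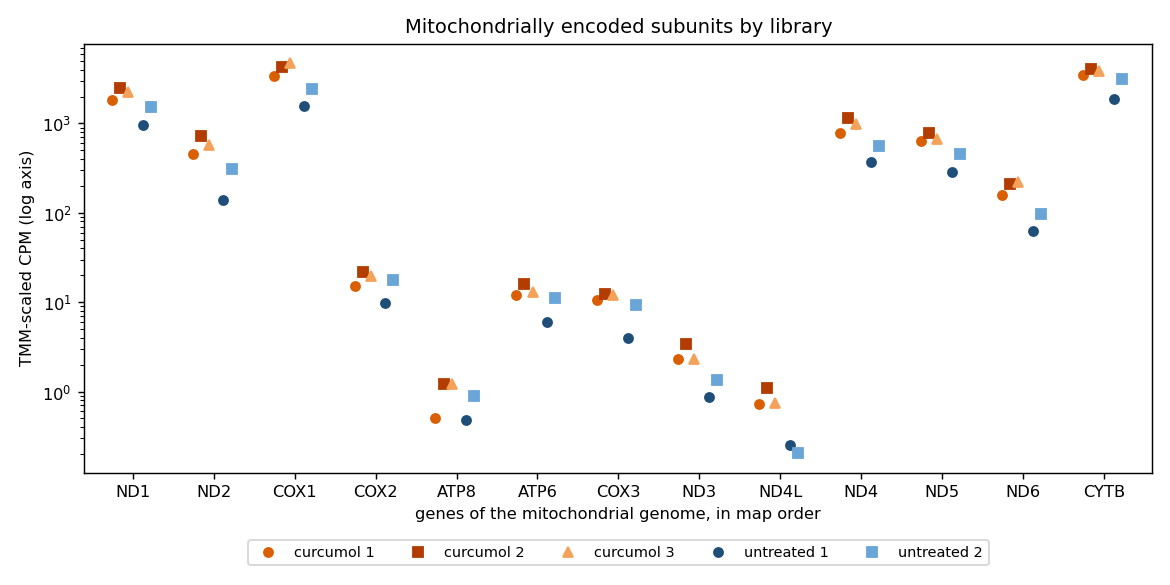
TMM-scaled CPM (log axis) of the 13 mitochondrial genes in map order, with 1 point a library, curcumol in orange and untreated in blue. Untreated 1 is the lowest library for 12 of 13 genes, and the groups overlap only for COX2 and ATP8.

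The untreated libraries differed in 1 direction in the 7 abundant mitochondrial genes and in both directions in the nuclear members. For the 7 abundant genes, untreated 2 was 1.51 to 2.21 times untreated 1. Over the 40 nuclear members that ratio ran from 0.604 to 1.34, with a median of 0.997. This median shows the direction and not the size of the differences, since ratios above and below 1 cancel in it. Among the curcumol libraries the highest of the abundant genes' values was 1.16 to 1.58 times the lowest, and for the nuclear members the median of this ratio was 1.26. Leaving out an untreated library moved the median of the 13 most, to 1.43 without untreated 2 and to 0.62 without untreated 1. Without untreated 2, 10 members were called beside 22.5% of all genes, and without untreated 1 there was 1, ND6, beside 18.7%. ND6 was also called with no filter on low counts, beside 2.03% of all genes.

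Shares of the library, which do not depend on TMM, gave the same order. The 13 mitochondrial genes took 1.10%, 1.47% and 1.42% of all gene counts in the curcumol libraries, against 0.478% and 0.806% in the untreated libraries (means 1.33% ± 0.20 SD, n = 3, and 0.642% ± 0.232 SD, n = 2). The 40 nuclear members took 0.729%, 0.674% and 0.800% with curcumol, against 0.739% and 0.720% without. The log2 ratio of mitochondrial to nuclear counts within a library was 0.59, 1.13 and 0.83 with curcumol and -0.63 and 0.16 without, a difference of 1.08 between group means. Leaving out untreated 1 brought that difference to 0.69, and leaving out untreated 2 to 1.48.

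Within complexes the same ratio was 0.77, 1.40 and 0.81 for complex I with curcumol, against -0.45 and 0.29 without. For complex III it was 1.71, 2.11 and 1.77 with curcumol and 0.68 and 1.29 without, and for complex IV 1.68, 2.12 and 1.82 with curcumol and 0.37 and 1.07 without. In each of these complexes every curcumol library lay above both untreated libraries. Complex V had ratios of -6.96, -6.28 and -6.45 with curcumol and -8.19 and -7.03 without, and its mitochondrial counts are those of ATP6 and ATP8 alone, which are in or beside the copied stretch.

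**Figure D3:**
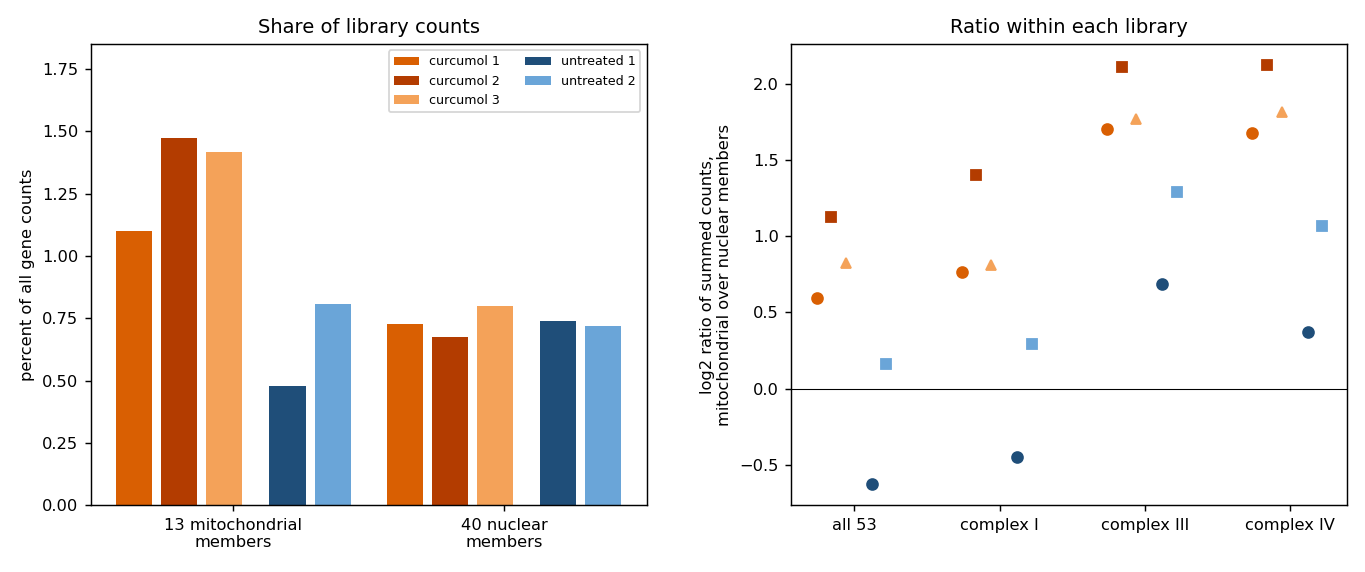
Left, percent of all gene counts on the 13 mitochondrial and the 40 nuclear members in each library (bars from 0). Right, log2 ratio of summed counts, mitochondrial over nuclear members, for all 53 and for complexes I, III and IV. The curcumol libraries lie above the untreated ones in every ratio, and the nuclear shares of both groups lie between 0.674% and 0.800%.

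The 40 nuclear members did not share that direction. Their fitted differences were positive for 12 and negative for 28, with a median of -0.12 and a range of -0.59 to 0.26, and none passed the threshold. At an unadjusted p under 0.05 there were 3 on the lower side (Cyc1, Sdhb and Cycs) and none on the higher side, where 6.51% and 18.1% of all tested genes stood. The direction of this group depends on the scaling: with total counts in place of TMM, 13 of the 40, in complexes I to IV, changed sign, 25 were positive and the median was 0.07. On the TMM scale 4 members lay wholly higher and 10 wholly lower with curcumol. Of all tested genes 29.5% and 14.9% did so. Of those above 100 CPM, a level that not all 40 reach, 10.8% and 35.9% did. With total counts 7 lay higher and 3 lower (36.6% and 9.31% of all tested genes). Relative to the median of all genes, the nuclear median was -0.27 and the mitochondrial median 0.76 with either scaling. A change of scaling shifts all genes about alike, so these values could hardly differ. Over all alternatives the nuclear value lay between -0.67 (DESeq2) and -0.15 (without curcumol 2). The mitochondrial value lay between 0.33 (without untreated 1) and 1.05 (without untreated 2). For 39 of the 40 the interval lay within 1 log2 unit of 0 on either side, the exception being Ndufs1.

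**Figure D4:**
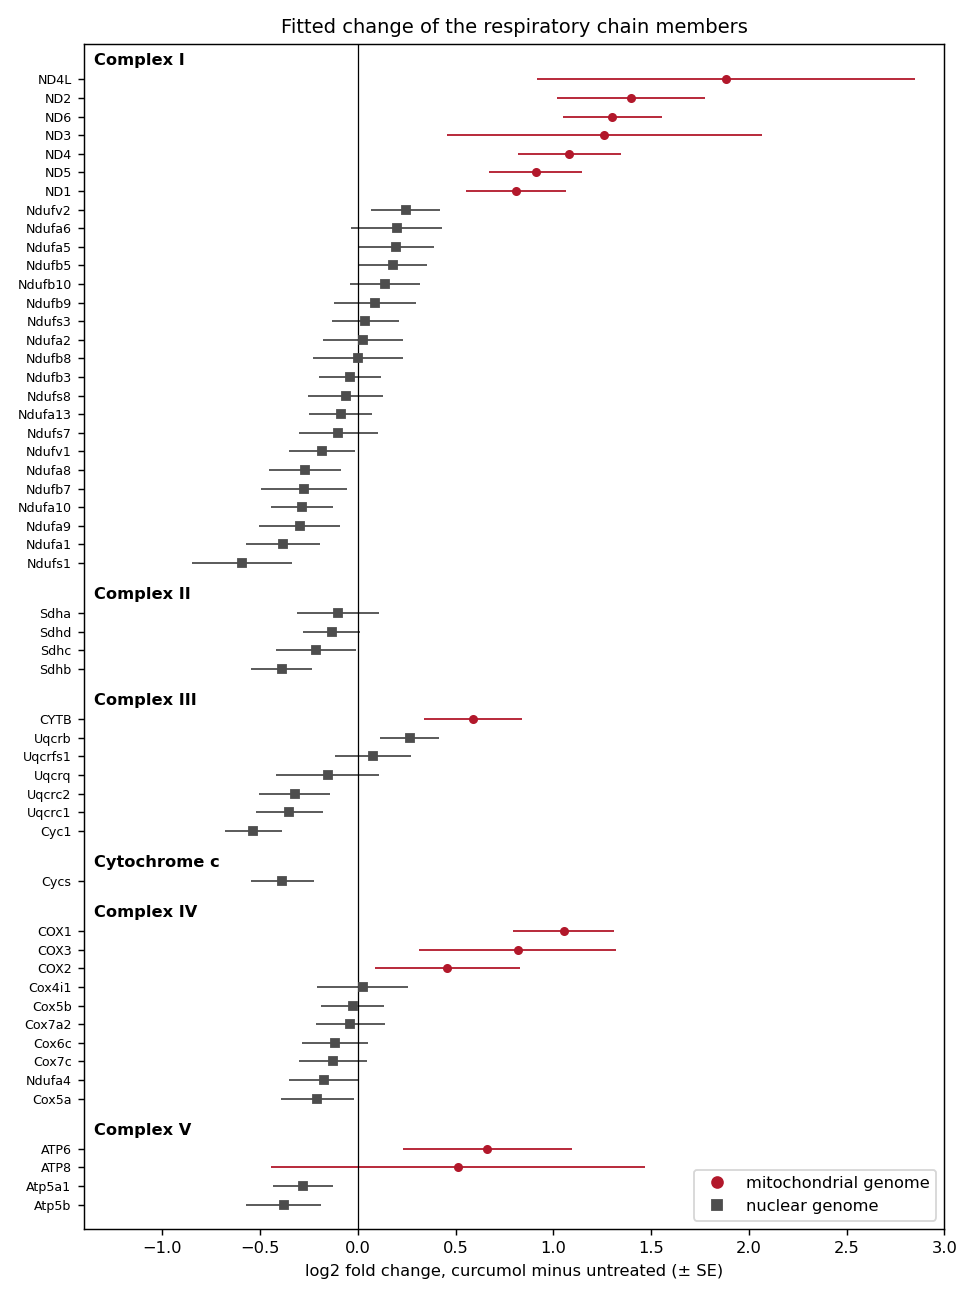
Fitted log2 fold change, curcumol minus untreated, with its SE (bars) for all 53 members by complex, mitochondrial genes as circles and nuclear genes as squares. Mitochondrial genes lie right of 0 in each complex that has them, while nuclear genes lie between -0.59 and 0.26.

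In complex I the 20 nuclear members had a median of -0.05, with 9 positive. Ndufs1, the iron-sulfur subunit that passes electrons along the peripheral arm, had the lowest value of all members: 74.0, 66.7 and 56.7 CPM with curcumol, against 124 and 74.6 CPM without (-0.59 ± 0.25, edgeR adjusted p = 0.217). Its groups barely separated, since untreated 2 exceeded curcumol 1 by less than 1 CPM. Ndufa1, a small accessory subunit needed for assembly, was at 42.7, 39.5 and 49.7 CPM with curcumol and at 58.2 and 56.6 CPM without (-0.38 ± 0.19, edgeR adjusted p = 0.271). Ndufa10, another accessory subunit, was at 122, 109 and 118 CPM with curcumol and at 129.9 and 153 CPM without (-0.28 ± 0.16, edgeR adjusted p = 0.334). On the other side of 0, the flavoprotein subunit Ndufv2 was at 134, 136 and 168 CPM with curcumol and at 115 and 131 CPM without (0.24 ± 0.18).

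All 4 subunits of complex II, which has no mitochondrial gene, had negative differences with TMM, of which those of Sdha and Sdhd turned to 0.087 and 0.053 with total counts. Sdhb, its iron-sulfur subunit, was at 315, 279 and 339 CPM with curcumol and at 426 and 390.0 CPM without (-0.39 ± 0.16, edgeR adjusted p = 0.188). The membrane anchors Sdhc and Sdhd were at -0.21 ± 0.21 and -0.13 ± 0.15, and the flavoprotein Sdha at -0.10 ± 0.21, with overlapping groups for all 3.

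Complex III held the nuclear member with the smallest p. Cyc1, the cytochrome c1 that hands electrons to cytochrome c, was at 171, 154 and 162 CPM with curcumol and at 224 and 246 CPM without (-0.54 ± 0.15, edgeR adjusted p = 0.0815). The core subunits Uqcrc1 and Uqcrc2 were at -0.35 ± 0.17 and -0.32 ± 0.18. Uqcrb, a quinone-binding subunit, had the highest value of the nuclear members, with 190.0, 171 and 182 CPM with curcumol and 141 and 161 CPM without (0.26 ± 0.15, edgeR adjusted p = 0.346). Subunits of this complex thus lay on both sides of 0 while their mitochondrial partner CYTB was at 0.59.

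Cycs, the cytochrome c that shuttles between complexes III and IV, was at 99.6, 93.7 and 82.5 CPM with curcumol and at 121 and 119 CPM without (-0.39 ± 0.16, edgeR adjusted p = 0.203). A stretch of 946 of its 3123 transcript bases has a copy of at least 99% identity, Gm10053. In complex IV, 233 of 709 bases of Cox7c (Gm10012) and 390 of 865 bases of Cox5b (Gm11273) also lie in such a copy. The 7 nuclear members of complex IV, Ndufa4 included, had a median of -0.12, and their groups overlapped in every case. Cox5a, a matrix-side subunit, was at 178, 163 and 190.1 CPM with curcumol and at 236 and 173 CPM without (-0.21 ± 0.19, edgeR adjusted p = 0.568). Ndufa4 was at -0.17 ± 0.18 and Cox7c at -0.13 ± 0.17, and with total counts both were just above 0. Cox4i1, the subunit through which ATP regulates the enzyme, was at 359.7, 336 and 532 CPM with curcumol and at 397 and 408 CPM without, with curcumol 3 above all others.

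Atp5a1 and Atp5b, the alpha and beta subunits of the catalytic head of complex V, both had negative differences with TMM. Atp5b was at 913, 782 and 694 CPM with curcumol and at 1157 and 917 CPM without (-0.38 ± 0.19, edgeR adjusted p = 0.280). Atp5a1 was at 633, 549 and 547 CPM with curcumol and at 734 and 668 CPM without (-0.28 ± 0.15, edgeR adjusted p = 0.322). On the TMM scale their groups did not overlap, and with total counts they did.

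**Figure D5:**
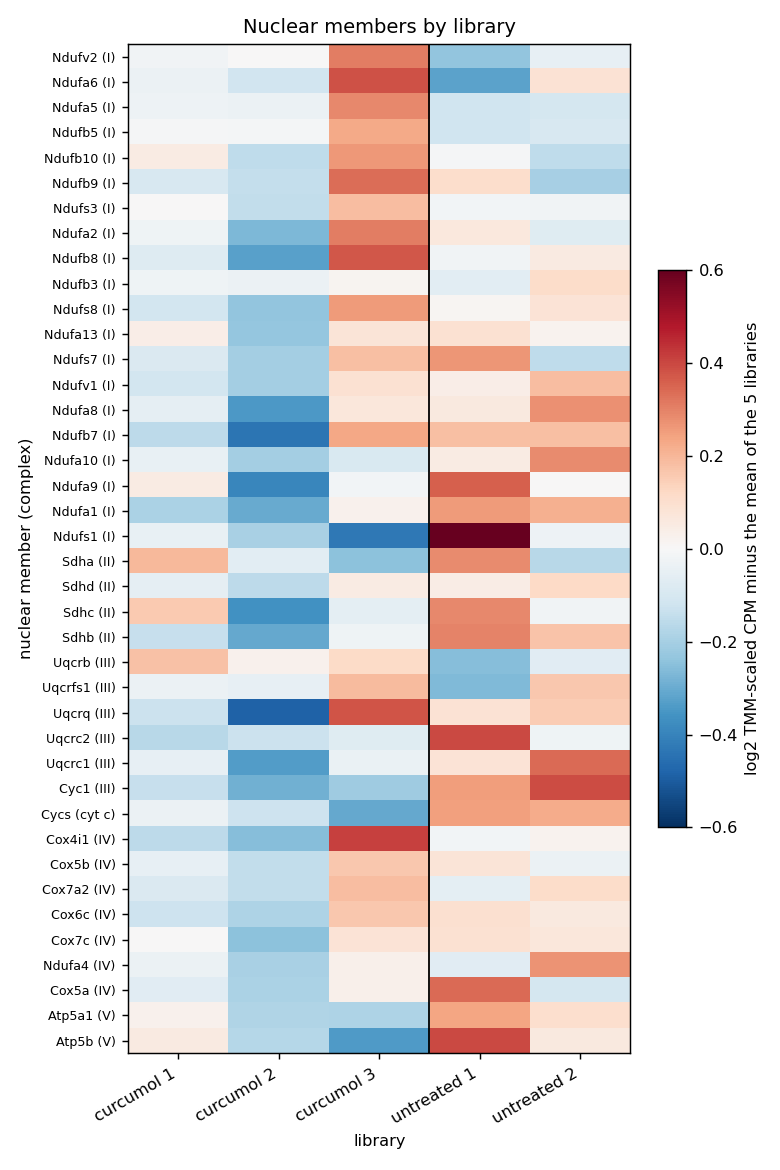
Log2 TMM-scaled CPM of the 40 nuclear members minus each gene's mean over the 5 libraries, with curcumol libraries left of the black line and untreated libraries right of it, and colours limited to 0.6 on either side. Curcumol 3 is the highest curcumol library for 30 genes and curcumol 2 the lowest for 33.

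Nuclear members of different complexes ordered the curcumol libraries alike. Curcumol 3 was the highest curcumol library for 30 of the 40 and curcumol 2 the lowest for 33. The same counts over all tested genes were not made, so this order may not be particular to these members. Across the 40 genes, transcript length had a Spearman correlation of -0.49 with the log2 ratio of curcumol 3 to the mean of curcumol 1 and 2, and of -0.40 with the fitted difference. These genes share their libraries and are not replicates. The 20 shorter transcripts had a median difference of -0.04 with 8 positive, and the 20 longer ones -0.25 with 4 positive. The part of transcript length in the nuclear values was not tested.

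The rest of the chain and its supporting genes were read from lists of the pathway. Of 38 further nuclear subunits, 10 were positive and 28 negative, with a median of -0.04 (-0.19 relative to all genes), and none passed the threshold. That direction also turned with the scaling: with total counts 31 of the 38 were positive and the median was 0.15. Relative to all genes it was still -0.19, since all genes shift about alike. The median was also just above 0 without curcumol 2 (0.045) and without untreated 2 (0.025). Atp5g1, for the ring that turns in the ATP synthase, was at 143, 122 and 143 CPM with curcumol and at 165 and 177 CPM without (-0.33 ± 0.15, edgeR adjusted p = 0.243). Of 44 tested assembly factors 19 were positive and 25 negative, with a median of -0.13 (-0.28 relative to all genes) and none past the threshold, and with total counts 25 were positive and the median was 0.056. Tmem126a, a complex I assembly factor, was at 36.6, 34.5 and 43.3 CPM with curcumol, against 59.8 and 56.6 CPM without (-0.61 ± 0.19, edgeR adjusted p = 0.110). Ndufaf7, another assembly factor of that complex, was at 0.85 ± 0.36.

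Genes that copy, transcribe and process mitochondrial DNA and RNA had 17 positive and 14 negative differences among 31, a median of 0.08, which is below that of all genes, and none past the threshold. Polrmt, the polymerase that transcribes the 13 genes, was at 21.1, 21.3 and 14.8 CPM with curcumol, against 70.0 and 35.7 CPM without (-1.47 ± 0.34, edgeR adjusted p = 0.0708). Tfam, the mitochondrial transcription and packaging factor, named here after its values were seen, was at 19.3, 19.8 and 17.8 CPM with curcumol and at 8.46 and 11.8 CPM without (0.91 ± 0.32, edgeR adjusted p = 0.138). Mterf2, of the mitochondrial transcription termination factor family, was at 0.789, 1.02 and 0.423 CPM with curcumol and had no count in either untreated library. Polrmt and Tfam thus lay on opposite sides, in libraries that did not overlap for either gene, and neither passed the threshold. Of the 31 genes 10 lay wholly higher and 4 wholly lower with curcumol (29.5% and 14.9% of all tested genes), and 17 overlapped.

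Among 7 tested regulators of mitochondrial biogenesis 4 were positive, with a median of 0.12, also below that of all genes. The transcription factor Yy1 was at 18.4, 31.7 and 30.8 CPM with curcumol, against 17.5 and 9.59 CPM without (0.995 ± 0.40, edgeR adjusted p = 0.192), and Gabpb1, of the nuclear respiratory factor GABP, was at -0.60 ± 0.29. The mitochondrial ribosome translates only the 13 genes. Its list was made by gene name, and 1 of the 78 genes, Lactb, was matched through a synonym. Not all 78 need therefore be ribosomal proteins. Among the 78, 24 had positive and 54 negative differences, with a median of -0.11 (-0.26 relative to all genes). With total counts 47 of these were positive and the median was 0.079. Mrps15, of the small subunit, had the smallest p of these, with 52.9, 52.7 and 50.3 CPM with curcumol and 81.3 and 90.7 CPM without (-0.73 ± 0.16, edgeR adjusted p = 0.0671). Mrpl37, of the large subunit, was at -0.57 ± 0.20. No gene of either list passed the threshold.

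Marker sums of several other cells were also higher in the curcumol libraries. Cardiomyocytes are rich in mitochondria, and the 21 markers of that cell summed to 142, 165 and 169 CPM with curcumol, against 40.02 and 78.1 CPM without, in the same order of groups and with untreated 1 lowest. All 19 tested markers had positive differences, with a median of 1.37 (1.22 above all genes), and 5 of the 21 had no count in either untreated library, Ckmt2 among them. Tnnt2, cardiac troponin T, was at 25.7, 24.3 and 35.2 CPM with curcumol, against 1.88 and 11.1 CPM without. Actc1, cardiac alpha-actin, was at 21.1, 28.4 and 29.4 CPM with curcumol and at 7.40 and 26.6 CPM without. The mitochondrial CPM per CPM of these markers was 76.3, 83.1 and 78.5 with curcumol and 131 and 110 without. The list holds Cox6a2, Cox7a1 and Cox8b, which are muscle isoforms of complex IV, and Cox6a2 was at 4.01, 5.04 and 7.99 CPM with curcumol, against 1.52 and 3.89 CPM without. Of the 6 muscle or alternative isoforms, 4 were positive with a median of 0.41 (0.26 above all genes), and Cox6b2 was at -1.12 ± 0.69.

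Neutrophil markers summed to 1566 to 3523 CPM with curcumol, against 359 and 400.3 CPM without, with Ngp and Camp past the threshold, and endothelial markers to 34.8 to 51.3 CPM, against 4.66 and 5.09 CPM. Fibroblast markers summed to 704 to 892 CPM with curcumol, against 586 and 459 CPM without, and Lum and Dcn of that list were past the threshold on the higher side. Fn1 made up most of the fibroblast sum, and its groups overlapped. It was at 600, 734 and 371 CPM with curcumol and at 549 and 427 CPM without. Of the 10 fibroblast markers 5 lay wholly higher (29.5% of all tested genes) and 5 overlapped. Lymphocyte markers summed to 144 to 159 CPM with curcumol, against 93.3 and 76.4 CPM without. Erythroid and platelet markers overlapped in their sum, at 909.8 to 1209 CPM with curcumol and 1062 and 1144 CPM without. Most of that sum was Pf4, at 1155, 862 and 1012 CPM with curcumol and 993 and 1004 CPM without. Of these 9 markers 3 lay wholly lower and 1 wholly higher with curcumol (14.9% and 29.5% of all tested genes). Hba-a1, among the lower, was at 10.9, 6.31 and 11.7 CPM with curcumol and at 19.2 and 42.1 CPM without. The higher one was Alas2, without a count in either untreated library. The part of these cells in the mitochondrial result was not tested. In such bulk libraries more cells of a type and more RNA per cell cannot be told apart. The untreated libraries also held fewer genes with a count, 12243 and 12915, against 17078 to 18501 with curcumol. The share of all genes without a count in both untreated libraries was not computed. How far this difference in detected genes enters the marker sums, and the genes without a count, was not tested.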

How the data were processed

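The data were counts of reads per gene from sorted cardiac macrophages, in 3 libraries with curcumol and 2 without, grouped and numbered by their titles. The authors deposited whole-number counts per gene without normalization. Per the submitters' processing notes Bowtie2, fastp, HISAT2 and HTSeq were used, with versions not stated. The build and annotation behind the counting were not given in the sources used here. RNA was isolated in TRIzol, per the labels' protocols, and the library kit is named in 2 ways, so strandedness is not settled. The total count per library was 39768705 to 43315822, and small counts carry counting error.

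The groups were compared by edgeR's quasi-likelihood test (version 4.0.16, R 4.3.3) after filterByExpr with a minimum count of 10 and TMM scaling, with no term but group, two-sided tests and Benjamini-Hochberg adjustment over 14508 genes, with 0.05 as the threshold. The fit was run on simulated data whose spread among replicates was set lower than in these libraries. That run therefore does not show how well the fit works here. Each SE is the fold change over the root of F. CPM shown are TMM-scaled. This display scale was chosen after CPM by total counts had also been seen, and it changes which nuclear members have groups that do not overlap, so both counts are printed. An exact permutation test of 3 against 2 libraries cannot go below a p of 0.1 and was not used.

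Transcript lengths and nuclear copies (megablast, at least 99% identity over at least 100 bases) came from GENCODE M21, and coordinates of mitochondrial genes from RefSeq GRCm38.p6. Both are GRCm38. Printed sequences are from the GENCODE M21 transcripts.

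Named were all mitochondrial members, up to 3 nuclear members of each complex with the smallest p, the highest and lowest nuclear members, the 2 lowest-p genes of each further list on mitochondrial function and the most abundant markers. A gene that this rule takes is not reported here. Ndufv2, Cox4i1, Sdha, Tfam and Tnnt2 were added after their values were seen. Cox5b is named only for its copy. Members and lists were chosen with earlier results of these data known. Alternatives were DESeq2 1.42.0, limma-voom (limma 3.58.1), RLE factors, total counts, mitochondrial genes left out of the scaling, other filters, the replicate number as a block and leaving out each library.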

Additional observations from a re-analysis of the deposited data

How the results depend on the processing

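All 13 mitochondrial members stayed positive under every alternative that tested them (12 with a CPM of at least 1 in 2 samples), and their median exceeded that of all genes by 0.33 to 1.05. Calls depended strongly on the tool. The number of genes called, 30 in the main analysis, was 2656 with DESeq2, 1661 with limma-voom, 416 with no filter, 98 with the CPM filter and 10 with total counts. Leaving out a library gave 0 to 3531: 2950 without untreated 1, 3531 without untreated 2, and 1, 0 and 19 without curcumol 1, 2 and 3. The number of members called, 0 in the main analysis, was 7 with DESeq2 (ND1, ND2, ND4, ND5, ND6, COX1 and, lower, Cyc1; 16.9% of all genes), 5 with limma-voom (ND2, ND4, ND5, ND6 and COX1; 11.4%) and 1 with no filter (ND6; 2.03%). Leaving out a library gave 0 to 10 members, with 10 without untreated 2 (22.5% of all genes) and 1 without untreated 1 (18.7%). With 1 untreated library left, that library is assumed to vary like the others. The cause of these differences was not tested.

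The mitochondrial median lay between 0.62 and 1.43 when libraries were left out, and the log2 ratio of mitochondrial to nuclear counts between 0.69 and 1.48. The 8 mitochondrial members that no annotated nuclear copy covers almost whole, a choice made after seeing the data, had a median of 0.98. Scaling of the displayed CPM, an alternative also added after seeing the data, changed how many nuclear members had groups that do not overlap: 7 higher and 3 lower with total counts, against 4 and 10 on the TMM scale. It left the mitochondrial count at 11. With total counts the median over all genes was 0.34 and 13 nuclear members changed sign, among them, of the genes named by the rule, Sdhd (0.053), Ndufa4 (0.012) and Cox7c (0.060). Leaving out a library put Cox5a between -0.39 and 0.034 (the highest without untreated 1) and Ndufa4 between -0.33 and 0.025 (the highest without untreated 2).

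With the replicate number as a block, 45 genes and 0 members were called, the mitochondrial median was 0.97 and the nuclear median -0.22. Only 2 pairs share a number and the labels tie them to no common source, so the numbers do not pair the libraries.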
